A study of Mus musculus with 6 samples.

Results

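The genes of the cyclins, the cyclin-dependent kinases (CDKs), their inhibitors and activating phosphatases, the E2F factors and the retinoblastoma pocket proteins were followed in RAW 264.7 cells (RAW 264.4 in part of the labels), macrophages of a mouse tumour line that a leukaemia virus gave rise to. They were taken from the series by a rule on gene symbols that uses no measured value. Earlier results of these data were known when the genes were chosen. The rule found 100 of the 16281 probes, for 55 genes, and 87 of these probes had a value on all 6 arrays and covered 54 genes. Treated cells had received lipopolysaccharide (LPS, the endotoxin of Gram-negative bacteria) at 100 ng/ml together with LPS-binding protein (LBP, the serum protein that delivers LPS to its receptors) at 100 pM for 4 h. Untreated cells of the same line were cultured for 4 h. Treated and untreated total RNA shared each 2-colour array, with treated RNA in Cy5 on 3 arrays and in Cy3 on the other 3, numbered as sets 1 to 3 in both orientations. Separate cultures are not mentioned for the sets, so p-values rest on a spread between samples that could be technical only.

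Cyclins bind CDKs and switch them on, and each pair drives its own step of the cell cycle. D-type cyclins with Cdk4 or Cdk6 and E-type cyclins with Cdk2 phosphorylate the pocket proteins in G1, which frees E2F factors to transcribe the genes of DNA synthesis, while A- and B-type cyclins with Cdk2 and Cdk1 carry the cell through S phase and mitosis. Inhibitors of the INK4 and CIP/KIP families hold these kinases in check, and macrophages that are activated by LPS are known to slow or stop dividing.

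Of the 54 genes tested, 21 were lower after treatment, 6 were higher and 27 were not called. The share called lower was 38.9%, against 15.0% of all 11364 features of the arrays, and the share called higher was 11.1%, against 14.0%. A call means an adjusted p below 0.05 (limma, Benjamini-Hochberg over all features), and a feature is the mean of a gene's probes or a single probe with no gene name. Each value is a log2 ratio, treated over untreated, in which 0 stands for equal amounts. It is given per set (the mean of its 2 arrays in the same direction) or as a mean ± SD (n = 3 sets). The median change of the 54 genes was -0.084, that of all features 0.00079, and the median SD of the 54 between sets was 0.065. The changes were small: falls ran from -0.15 to -0.78 and rises from 0.17 to 0.76, 5 falls and 1 rise were over 1.5-fold, and 0 of either reached 2-fold. Whether fewer cells were cycling or each cell held less of these RNAs cannot be told apart in RNA from whole cultures.

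**Figure D1:**
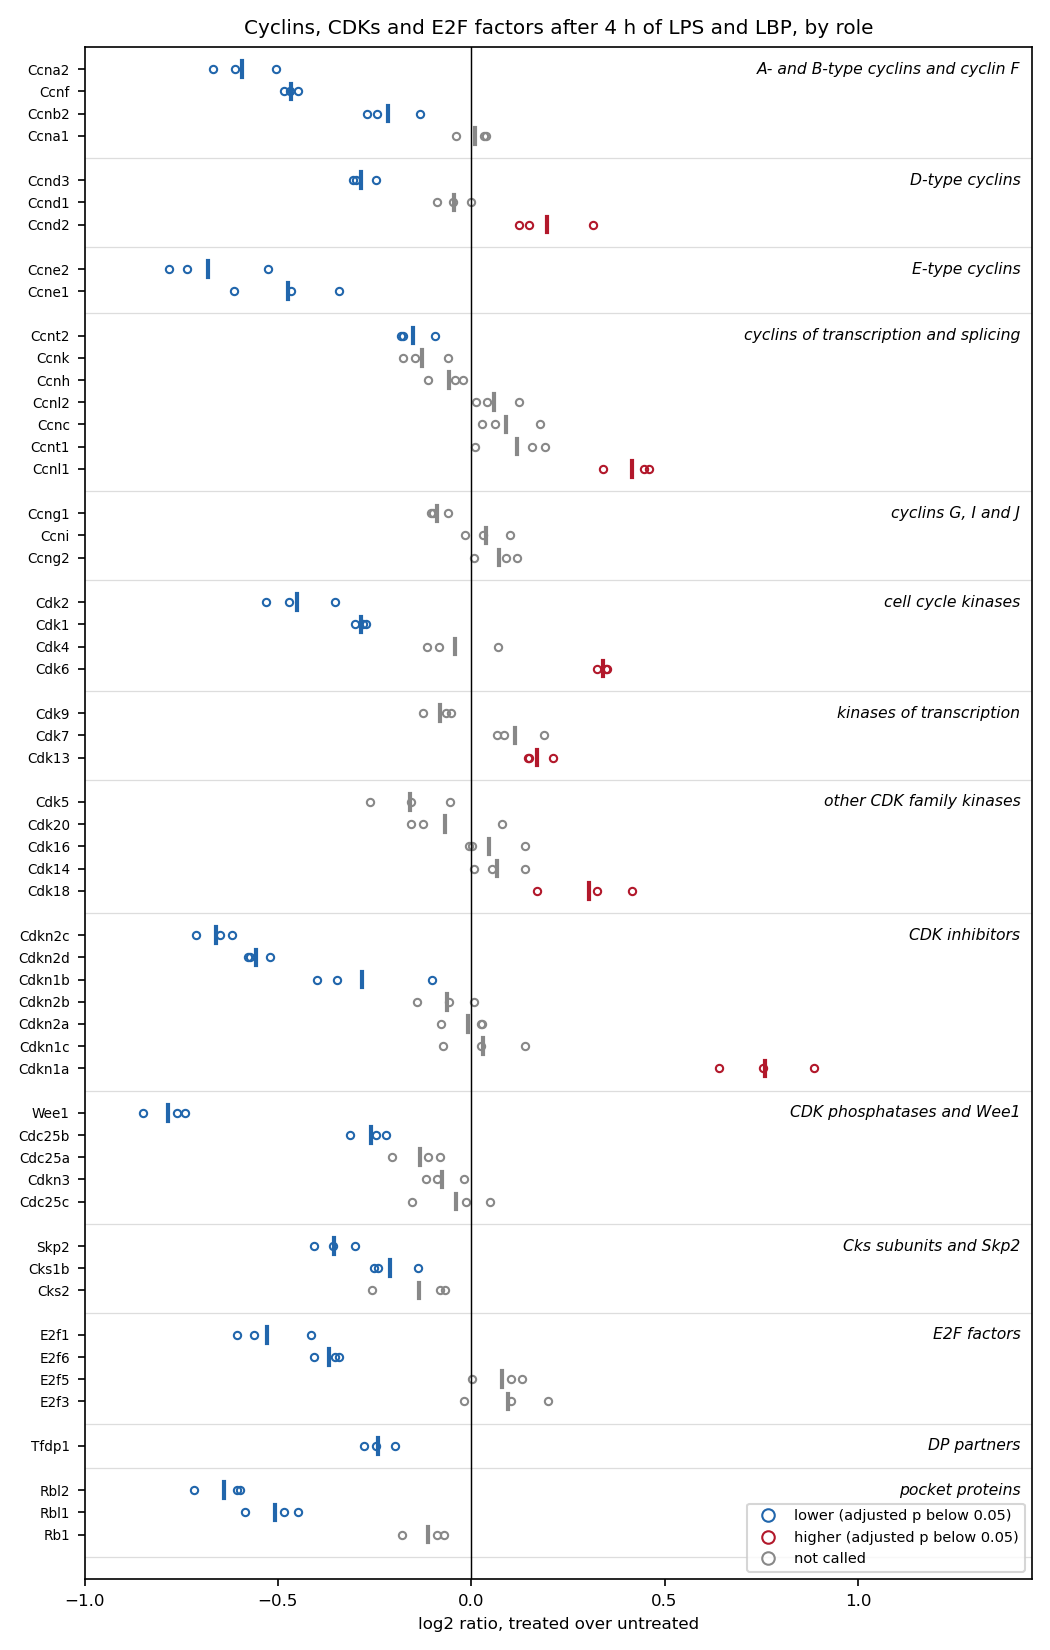
Log2 ratio of treated over untreated RNA (horizontal axis) for the 54 genes, grouped by role. Open circles are the values of the 3 sets, vertical bars their means, and colours the limma call. Both E-type cyclins, Wee1 and all 3 pocket proteins, of which Rb1 was not called, lie left of 0 in every set, and Cdkn1a lies farthest to the right at 0.76.

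Cy5 is called the test channel in the labels, and the direction of every ratio depends on this. Array values of opposite orientation correlated at -0.76 to -0.37 as deposited (Pearson, across probes measured on all arrays), and the sign was turned on arrays whose Cy3 channel held treated RNA. Tnf and Il1b, cytokine genes known to be induced by LPS, were then at 2.08 ± 0.18 and 4.17 ± 0.055, and a reversed ratio would turn these and every sign below. Gapdh was at 0.035 ± 0.035 (limma adjusted p = 0.610). Each array held 14195 to 15027 values other than exactly 0, and the number of arrays limits the precision. The table gives ratios and no levels, so whether a marker or a cyclin was present at all could not be checked. Of 8 macrophage markers 4 were higher and 1 lower. Of 17 markers of other cell types, 15 were not called and 2 were higher (Cd4 at 0.23 and Kdr at 0.80), and their part in the results was not tested.

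The E-type cyclin genes fell together. Ccne2, a cyclin E that activates Cdk2 at the start of S phase, was at -0.78, -0.53 and -0.74 in sets 1 to 3. All 3 sets lay below 0 and so did all 6 arrays, and the mean of -0.68 ± 0.14 put treated RNA at 62.4% of untreated (95% interval of the log2 ratio -0.82 to -0.54, limma adjusted p = 1.23e-04). Its relative Ccne1 was at -0.34, -0.61 and -0.47, with a mean of -0.47 ± 0.14 (adjusted p = 7.64e-04). The ranges of the 2 genes over sets overlapped. Its arrays were less even than its sets: they read -0.42, -1.46 and -0.63 with treated RNA in Cy5 and -0.26, 0.24 and -0.30 with treated RNA in Cy3, and with either orientation alone the fall was not called (adjusted p = 0.0611 and 0.559). Ccne2 was not called with treated RNA in Cy3 alone (-0.40, adjusted p = 0.0615).

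D-type cyclins, which couple growth factor signals to Cdk4 and Cdk6, went separate ways. Ccnd3 was at -0.30, -0.31 and -0.25 and fell by 0.28 on the log2 scale (SD 0.033, adjusted p = 0.00199). It was at -0.17 with treated RNA in Cy5, not called there (adjusted p = 0.132), and at -0.40 with treated RNA in Cy3. Ccnd2 was at 0.32, 0.15 and 0.12 and rose to 0.20 ± 0.10 (adjusted p = 0.0263), above 0 on all 6 arrays. That call ended without set 1 (0.14, limma adjusted p = 0.168) and with either orientation alone (limma adjusted p = 0.148 in Cy5 and 0.0768 in Cy3). Ccnd1 was at -0.0011, -0.047 and -0.088, with a mean of -0.045 ± 0.043 and an interval of -0.15 to 0.056 (adjusted p = 0.501). The set values of the 3 genes did not overlap, and the differences between them were not tested. Of the kinases they bind, 1 of 2 was called. Cdk6 was at 0.35, 0.35 and 0.32 and rose to 0.34 ± 0.015 (1.27-fold, adjusted p = 7.12e-04), on all 6 arrays. Cdk4 was at -0.11, -0.083 and 0.069, a mean of -0.042 ± 0.098 that was not called (interval -0.16 to 0.077, adjusted p = 0.601). A second Cdk6 probe with values on 4 arrays averaged 0.16 there, with 1 of its 4 values below 0. With exact zeros kept as values, which brings in that probe, Cdk6 was at 0.22 and not called (limma adjusted p = 0.0975).

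Cdk2, which acts in G1 and later, fell, as did Cdk1, Ccna2, Ccnf and Ccnb2 of the later cycle, and Ccna1 was not called. Cdk2, the partner of cyclins E and A, was at -0.53, -0.47 and -0.35, a mean of -0.45 ± 0.091 (73.1% of untreated, adjusted p = 4.39e-04). With exact zeros kept as values it was at -0.034 (limma adjusted p = 0.952), because a second Cdk2 probe, with a value of 2.29 on 1 array and 0 on the others, then enters the mean. Cdk1, the kinase of mitotic entry, was at -0.27, -0.30 and -0.28, a mean of -0.28 ± 0.016 (adjusted p = 0.00179). Cdk1 and Cdk2 were below 0 on all 6 arrays. Ccna2, the cyclin A of dividing cells, was at -0.61, -0.67 and -0.50, a mean of -0.59 ± 0.083 (adjusted p = 9.30e-05), and its 2 probes read -0.71 and -0.48. Ccna1, the cyclin A known from male germ cells, was at 0.0099 ± 0.043 (adjusted p = 0.897), with set values from -0.040 to 0.037 that lay apart from those of Ccna2. Ccnf, the founding F-box protein, was at -0.48, -0.47 and -0.45, a mean of -0.47 ± 0.018 (adjusted p = 1.47e-04), although its arrays ranged from -0.92 to -0.017. Its 2 probes, both called lower, were unlike: over the arrays 1 ran from -0.28 to -0.46 and the other from -1.47 to 0.42. The values of -1.47 and 0.42 were the 2 orientations of set 2 and offset each other in its mean. With treated RNA in Cy3 alone Ccnf was at -0.29 and not called (limma adjusted p = 0.107). Ccnb2, a B-type cyclin of mitosis, fell less, at -0.24, -0.27 and -0.13 (mean -0.22 ± 0.073, adjusted p = 0.0115), and was called in neither orientation alone (limma adjusted p = 0.0724 in Cy5 and 0.0867 in Cy3).

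**Figure D2:**
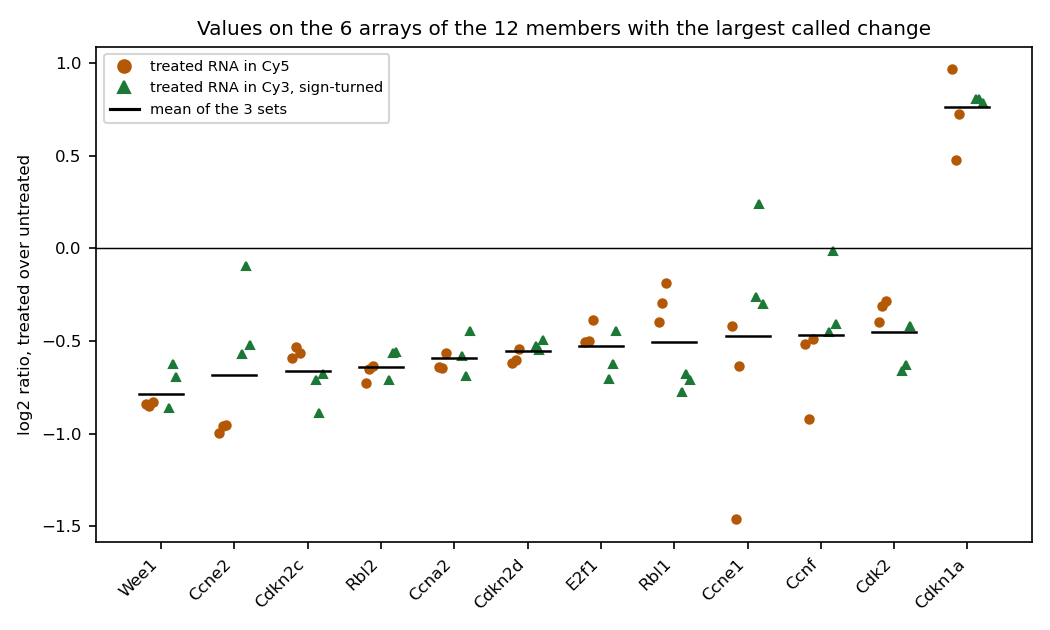
Log2 ratio of treated over untreated RNA (vertical axis) on each of the 6 arrays for the 12 genes with the largest called change. Circles are arrays with treated RNA in Cy5, triangles those with treated RNA in Cy3 after the sign was turned, and lines the means. The values lie on 1 side of 0 for 11 of the 12 genes, and for Ccne1 1 array, at 0.24, lies on the other side.

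Promoters of genes that fell are shown because E2F factors, and the MuvB complex that binds the cell cycle homology region (CHR), are known to control such genes. The RefSeq promoter table (GRCm38.p6) held windows of 250 bases before to 50 bases after the start for 43 of the 54 genes. They were searched on both strands for the E2F spellings TTTGGCGC, TTTCGCGC and TTCCCGCC, the CHR spellings TTTGAA and TTCGAA, and CCAAT, the box bound by NF-Y. An E2F spelling stood in 3 of 18 genes called lower (Rbl1, Cdk1 and Tfdp1, 16.7%), 0 of 5 called higher and 2 of 20 not called, against 9.77% of all features called lower and 3.39% of 27025 genes. A CHR spelling stood in 7 of 18 called lower (38.9%), 0 of 5 called higher and 5 of 20 not called, against 19.7% of features called lower and 21.7% of all genes. CCAAT stood in 12, 1 and 12 of these genes (66.7%, 20% and 60%), against 48.3% of features called lower and 41.1% of all genes. Wee1, Ccne2 and Ccna2, also called lower, had no window and were not searched. Among genes called lower, E2f1, Ccne1 and Cdk2 held neither an E2F nor a CHR spelling, and only genes with such a spelling are shown. The 250 bases before the start of Cdk1 at chr10:69352913-69353162 (minus strand), Ccnf at chr17:24251410-24251659 (minus strand), Cks1b at chr3:89418292-89418541 (minus strand) and Rbl1 at chr2:157204535-157204784 (minus strand) follow, 5′ to 3′, with the matched letters in capitals.
Cdk1: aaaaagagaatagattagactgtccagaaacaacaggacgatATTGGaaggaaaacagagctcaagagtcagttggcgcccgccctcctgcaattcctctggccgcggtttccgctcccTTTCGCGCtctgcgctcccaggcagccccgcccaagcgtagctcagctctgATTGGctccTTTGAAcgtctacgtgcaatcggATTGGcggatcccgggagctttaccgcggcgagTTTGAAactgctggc
Ccnf: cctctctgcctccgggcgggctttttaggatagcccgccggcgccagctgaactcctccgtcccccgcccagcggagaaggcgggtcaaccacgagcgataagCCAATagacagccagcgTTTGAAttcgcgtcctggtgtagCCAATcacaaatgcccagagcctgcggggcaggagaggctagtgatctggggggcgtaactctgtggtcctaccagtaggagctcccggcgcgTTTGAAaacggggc
Cks1b: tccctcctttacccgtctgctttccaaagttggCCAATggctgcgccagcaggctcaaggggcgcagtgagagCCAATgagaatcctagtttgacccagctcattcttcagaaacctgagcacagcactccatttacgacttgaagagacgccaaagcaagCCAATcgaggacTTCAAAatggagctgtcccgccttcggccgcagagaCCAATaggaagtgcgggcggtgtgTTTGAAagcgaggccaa
Rbl1: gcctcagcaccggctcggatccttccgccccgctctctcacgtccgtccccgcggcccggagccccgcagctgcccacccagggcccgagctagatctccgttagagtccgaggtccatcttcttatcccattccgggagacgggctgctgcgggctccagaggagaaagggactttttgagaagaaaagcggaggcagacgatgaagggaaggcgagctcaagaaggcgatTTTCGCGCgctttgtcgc

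A TTTGAA began 15 bases before the start in Cdk1, 14 in Ccnf and 17 in Cks1b. Upstream of it a CCAAT began 48 bases before the start in Cdk1 and 41 in Cks1b, on opposite strands, while that of Ccnf began at 107. The Cdk1 stretch held all 3 motifs, and its E2F spelling began 131 bases before the start, against 18 in Rbl1. A stretch of E2f3, which was not called, held all 3 motifs as well. Its E2F spelling began 12 bases before the start, its TTTGAA 23 and its nearest CCAAT 81. These are matches of letters in a window and no measurement of binding.

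Pocket proteins, the repressors that E2F factors carry until CDKs phosphorylate them, fell in 2 of 3 cases. Rbl2, which encodes p130, the pocket protein of resting cells, was at -0.72, -0.61 and -0.60, a mean of -0.64 ± 0.066 (64.2% of untreated, adjusted p = 5.04e-05). Rbl1, which encodes p107, was at -0.59, -0.48 and -0.45, a mean of -0.51 ± 0.071 (adjusted p = 1.74e-04). It was at -0.29 with treated RNA in Cy5, not called there (adjusted p = 0.0546), and at -0.72 with treated RNA in Cy3. The founding tumour suppressor Rb1 was at -0.18, -0.088 and -0.070, a mean of -0.11 ± 0.058 that missed the threshold (interval -0.22 to -0.0075, adjusted p = 0.108). No set value of Rb1 lay as low as any of Rbl1 or Rbl2, and the difference between the genes was not tested.

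Among the 4 measured E2F genes 2 fell and 0 rose. E2f1, an activator of S-phase genes and itself an E2F target, was at -0.60, -0.56 and -0.41, a mean of -0.53 ± 0.10 (69.4% of untreated, adjusted p = 2.34e-04). E2f6, a repressor that works without pocket proteins, was at -0.34, -0.41 and -0.35 (mean -0.37 ± 0.036, adjusted p = 5.78e-04), and its 2 probes differed by only 0.017. The activator E2f3 was at -0.019, 0.20 and 0.10 (mean 0.094 ± 0.11, adjusted p = 0.243), and E2f5, a partner of the pocket proteins, at 0.10, 0.13 and 0.0031 (mean 0.079 ± 0.067, adjusted p = 0.259). No set value of E2f3 or E2f5 overlapped those of E2f1 or E2f6. Tfdp1, the DP subunit that E2F factors need to bind DNA, fell to -0.24 ± 0.040 (adjusted p = 0.00472), below 0 on all 6 arrays, and was not called with treated RNA in Cy5 alone (-0.22, limma adjusted p = 0.0802).

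CDK inhibitors moved in both directions, with 3 lower, 1 higher and 3 not called of 7. Cdkn1a, which encodes p21, the inhibitor that p53 and other signals induce, had the largest rise of the 54 genes. It was at 0.89, 0.64 and 0.75, a mean of 0.76 ± 0.12 or 1.69-fold (interval 0.63 to 0.89, adjusted p = 5.57e-05), and above 0 on all 6 arrays. Its 3 probes gave different sizes, 1.07, 0.88 and 0.32, and each was called higher. The gap of 0.75 between them was the widest of any gene with several probes, and the lowest probe had 1 of 6 array values below 0 (-0.013).

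The INK4 inhibitors of Cdk4 and Cdk6 split. Cdkn2c (p18) was at -0.65, -0.71 and -0.62, a mean of -0.66 ± 0.047 (63.3% of untreated, adjusted p = 3.33e-05), and Cdkn2d (p19) at -0.57, -0.58 and -0.52, a mean of -0.56 ± 0.031 (adjusted p = 6.90e-05). Both genes were below 0 on all 6 arrays and with each of their probes. Cdkn2b (p15) was at -0.056, 0.0072 and -0.14 (mean -0.063 ± 0.074, adjusted p = 0.380) and Cdkn2a, the locus of p16 and ARF, at 0.027, -0.077 and 0.026 (mean -0.0081 ± 0.060, adjusted p = 0.920). Neither overlapped Cdkn2c or Cdkn2d in any set. In the CIP/KIP family, Cdkn1b (p27) was at -0.40, -0.35 and -0.10 and fell to -0.28 ± 0.16 (adjusted p = 0.0133), with 2 of 6 arrays above 0. It was at -0.49 with treated RNA in Cy5 and -0.070 with treated RNA in Cy3, called in neither alone (adjusted p = 0.0554 and 0.661). Cdkn1c (p57) was at 0.14, 0.025 and -0.074 (mean 0.030 ± 0.11, adjusted p = 0.721).

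The enzymes that set the inhibitory phosphate on CDKs and remove it were lower or not called. Wee1, the kinase that places that phosphate and delays mitosis, had the largest fall of the 54 genes. It was at -0.85, -0.74 and -0.76, a mean of -0.78 ± 0.059 or 58.1% of untreated (interval -0.89 to -0.68, adjusted p = 1.64e-05), and its 2 probes read -0.85 and -0.72. Among the opposing phosphatases, Cdc25b fell to -0.26 ± 0.047 (adjusted p = 0.00349). It was at -0.077 with treated RNA in Cy5 and not called there (adjusted p = 0.393), and at -0.44 with treated RNA in Cy3. Cdc25a was at -0.13 ± 0.066 and below 0 on all 6 arrays without a call (adjusted p = 0.0687). Cdc25c was at -0.039 ± 0.10 (adjusted p = 0.637), with its 2 probes at -0.17, called lower on its own, and 0.092. Cdkn3, a phosphatase that acts on the activating site of CDKs, was at -0.075 ± 0.050 (adjusted p = 0.264).

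Skp2, the ubiquitin ligase subunit that targets p27, and its cofactor Cks1b fell. Skp2 was at -0.41, -0.36 and -0.30, a mean of -0.36 ± 0.053 (adjusted p = 8.06e-04). Cks1b was at -0.25, -0.24 and -0.14, a mean of -0.21 ± 0.063 (adjusted p = 0.0111), and was not called without set 1 (-0.19, limma adjusted p = 0.0553) or with either orientation alone (limma adjusted p = 0.114 in Cy5 and 0.0556 in Cy3). The related Cks2 was at -0.26, -0.081 and -0.067 (mean -0.13 ± 0.11, adjusted p = 0.0994).

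Cyclins and kinases that work in transcription and splicing were mostly not called. Ccnl1, a cyclin found with splicing factors, rose to 0.42 ± 0.065 (1.33-fold, adjusted p = 4.34e-04). It was at 0.46, 0.45 and 0.34, and its 2 probes agreed to within 0.013. Its relative Ccnl2 was at 0.12, 0.040 and 0.011 (mean 0.058 ± 0.058, adjusted p = 0.402), below Ccnl1 in every set. Ccnt2, a partner of Cdk9 in transcript elongation, was called lower at -0.15 ± 0.050 (adjusted p = 0.0379), and Cdk13, a kinase of RNA polymerase II, higher at 0.17 ± 0.038 (adjusted p = 0.0215). Neither direction held in both dye orientations. Ccnt2 read 0.023 with treated RNA in Cy5 and -0.32 with treated RNA in Cy3, and Cdk13 read 0.54 and -0.20. Both calls also ended without set 1, 2 or 3 (limma adjusted p from 0.0640 to 0.162 for Ccnt2 and from 0.0507 to 0.124 for Cdk13).

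The other genes of this machinery were Cdk9 (-0.081 ± 0.038), Cdk7 (0.11 ± 0.066), its cyclin Ccnh (-0.058 ± 0.047), Ccnc (0.089 ± 0.079), Ccnk (-0.13 ± 0.061) and Ccnt1 (0.12 ± 0.096), none of them called. Ccnt1 was called higher without set 3 (0.17, limma adjusted p = 0.0487). The 2 probes of Ccnk stood at -0.29 and 0.036, the first called lower by itself. In the remaining group, Cdk18 rose to 0.30 ± 0.12 (adjusted p = 0.00531), at 0.42, 0.32 and 0.17 and above 0 on all 6 arrays. It was not called with treated RNA in Cy5 alone (0.33, limma adjusted p = 0.0715) or with exact zeros kept (0.15, limma adjusted p = 0.221). Cdk5, known for its work in neurons, was at -0.16 ± 0.10 (adjusted p = 0.0584) and was called lower without set 3 (-0.21, limma adjusted p = 0.0410). Cdk14 (0.067), Cdk16 (0.045), Cdk20 (-0.067) and the cyclins Ccng1 (-0.087), Ccng2 (0.072) and Ccni (0.037) were not called. Over all 27 genes without a call the means ran from -0.16 to 0.12, and their 95% intervals lay between -0.28 and 0.24.

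**Figure D3:**
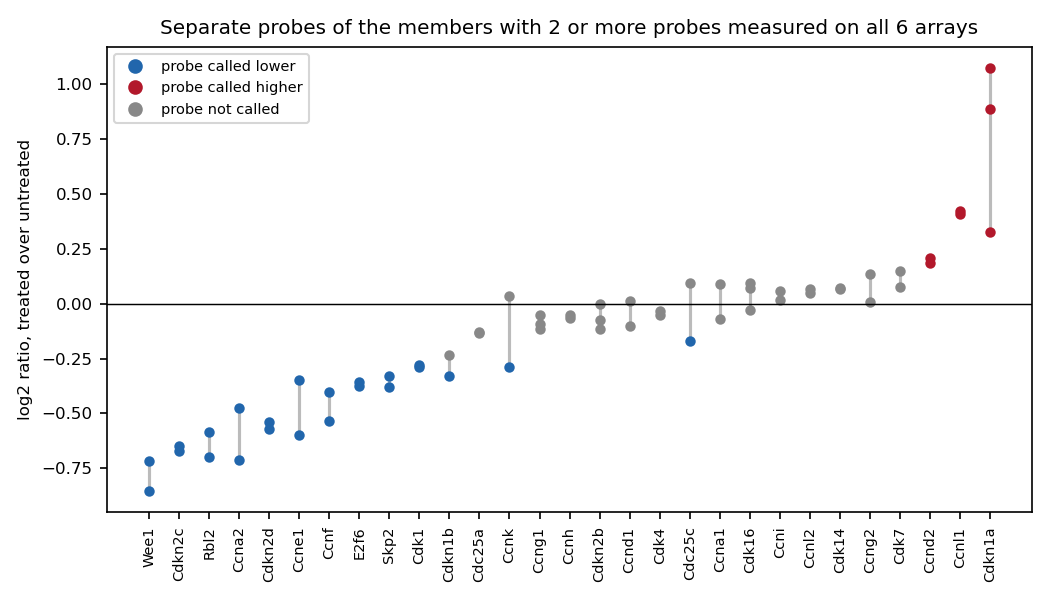
Log2 ratio of treated over untreated RNA (vertical axis) for each separate probe of the 29 genes with several probes measured on all 6 arrays, coloured by the probe's own call, with grey lines joining the probes of a gene. Probes of a gene mostly lie close together, with a median gap of 0.073, and Cdkn1a spans the widest range, from 0.32 to 1.07.

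Separate probes of a gene mostly gave the same call. Of the 29 genes with several probes on all 6 arrays, 26 had the same call from every probe, 0 had probes called in opposite directions and 5 had probes on both sides of 0. The 26 include genes with no probe called, among them Ccna1, Ccnd1 and Cdk16, whose probes lay on both sides of 0. The median gap between the lowest and highest probe was 0.073. The 3 genes whose probes differed in call were Ccnk, Cdc25c and Cdkn1b, each with 1 probe called lower and 1 not called. A further 13 probes lacked a value on some array: 4 had none at all (of Ccnd3, Ccne2, Cdk5 and Cdkn1c) and 9 had values on 1 to 5 arrays. Among these, a second Cdc25b probe averaged -0.38 over 5 arrays and a second Cks1b probe -0.21 over 3, while a second Cdk18 probe averaged -0.0081 over 3 and a further Skp2 probe -0.31 over 2. Probes with a single value read 1.73 for Ccnb2, 2.29 for Cdk2 and -2.77 for Ccnt1, far from the same genes' other probes. Cdk3, the 1 gene left untested, had values on 4 arrays, from -0.34 to 0.42.

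Of the 27 called genes, 18 of the 21 lower were below 0 and 5 of the 6 higher were above 0 on all 6 arrays. The exceptions were Ccne1, Cdkn1b, Ccnt2 and Cdk13. The same test on the dye effect (Cy5 over Cy3, with the treatment cancelled) called 0 of the 54 genes and 0% of all features, while 15 of the 54 and 2630 of all 11364 had an unadjusted limma p below 0.05.

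Genes that act with the cyclins and CDKs were counted in lists chosen for their roles. Of 36 measured E2F target genes of replication, 31 fell and 1 rose, with a median of -0.35. Tk1, the thymidine kinase gene, was at -1.12 ± 0.076, the licensing inhibitor gene Gmnn at -1.12 ± 0.16 and the origin factor gene Cdc6 at -0.84 ± 0.13. Dbf4, the activator of the Cdc7 kinase, was not called (-0.20 ± 0.20), and the 1 rise was that of the nucleoside kinase gene Dck (0.40 ± 0.087). Of 25 mitotic kinase and target genes 22 fell and 1 rose, with a median of -0.27. With treated RNA in Cy5 alone 13 of them were called lower, and in Cy3 alone 12. Mki67, the proliferation marker, was at -0.49 ± 0.076, Racgap1 at -0.49 ± 0.082 and the checkpoint gene Mad2l1 at -0.48 ± 0.076, while the kinase gene Pkmyt1, a relative of Wee1, missed the threshold (-0.18 ± 0.13, adjusted p = 0.0512). Pttg1, which encodes securin, was the 1 that rose (0.19 ± 0.089), and without set 3 this list had 0 called higher (limma). These shares of 86.1% and 88% lower stand beside 38.9% for the cyclins, CDKs and E2F factors and 15.0% of all features.

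**Figure D4:**
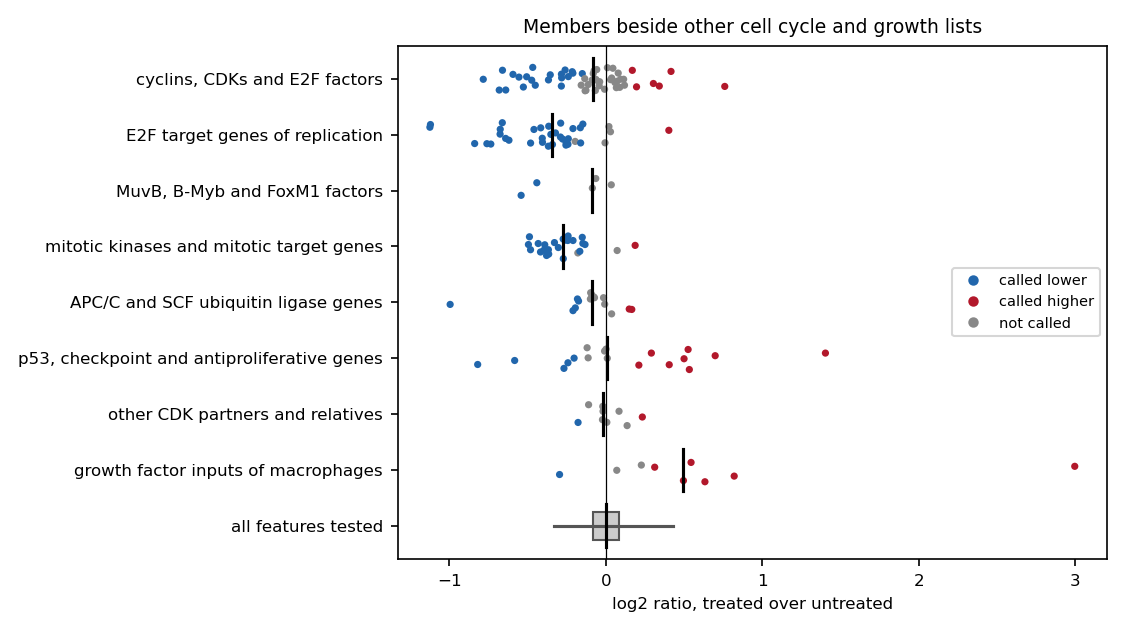
Log2 ratio of treated over untreated RNA (horizontal axis) of the 54 genes and of 7 lists of related genes. Points are genes coloured by call, black bars medians, and the box and line at the bottom hold the 25th to 75th and 5th to 95th percentiles of all 11364 features. The replication and mitosis lists lie mostly left of 0, with medians of -0.35 and -0.27. The growth factor list, which includes transcription factor genes, lies mostly right of it, with a median of 0.50.

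Transcription factors of the later cycle fell in 2 of 5 cases (40%, against 15.0% of all features), Mybl2 (-0.54 ± 0.083) and Foxm1 (-0.44 ± 0.11). The histone-binding subunit gene Rbbp4 was not called (-0.086 ± 0.24). Of 15 genes of the APC/C and SCF ubiquitin ligases, which degrade cyclins and inhibitors, 5 fell and 2 rose. These shares were 33.3% and 13.3%, against 15.0% lower and 14.0% higher of all features, so the share of rises was near that of all features. Fbxo5, the inhibitor of the APC/C, had the largest fall, to 0.502 of untreated RNA (SD of the log2 ratio 0.13), ahead of the activator genes Fzr1 (-0.21 ± 0.073) and Cdc20 (-0.20 ± 0.041). The rises were those of Anapc10 (0.17 ± 0.10) and Cdc26 (0.15 ± 0.015), and Anapc1 was not called (-0.099 ± 0.050). Without set 1 or set 2, 3 genes of this list were called lower; without set 1, 1 was called higher, and without set 2 or set 3, 0 (limma).

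Genes of p53, checkpoints and growth arrest split into 8 higher and 5 lower of 18 (44.4% and 27.8%). Of all features 14.0% were higher and 15.0% lower. Gadd45b, a stress sensor gene, rose to 1.40 ± 0.048 and Gadd45a to 0.70 ± 0.19, while the checkpoint kinase gene Chek2 fell to -0.82 ± 0.028, and Atr was not called (-0.12 ± 0.088). Among 10 other CDK partners 1 rose (Cdk2ap2, 0.23 ± 0.11) and 1 fell (Cdk2ap1, -0.18 ± 0.040), and Cdkl2 was not called (0.14 ± 0.074). Each share, 10%, was below that of all features. The rise was not called without set 1, and the fall not without set 3. Of 9 genes listed as growth factor inputs 6 rose and 1 fell (66.7% and 11.1%), with a median of 0.50. The list also holds the transcription factor genes Myc, Ets2, Mitf and Spi1, all of them called higher. Myc, which promotes entry into the cycle, rose to 3.00 ± 0.36, Ets2 to 0.82 ± 0.18 and Mitf to 0.63 ± 0.19, and Csf1, the macrophage growth factor, was not called (0.23 ± 0.25). The fall was that of its receptor gene Csf1r (-0.30 ± 0.067). Of the other ligand and receptor genes, Csf2 (0.54) and Csf2ra (0.31) rose and Csf2rb was not called (0.070).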

How the data were processed

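Deposited values were log2 ratios, 1 per probe and array, for 6 two-colour arrays with a median of 0 on each. The largest, 6.64, is log2 of a ratio of 100. For the scanner, background correction, normalization and genome build, the sources used here give nothing. Exact 0 was taken as not measured. Gene names came from the platform annotation (13738 probes with 1 symbol, 52 with several, 2491 with none listed). The 13415 probes with values on all 6 arrays were kept, probes of 1 gene averaged, and each set's 2 arrays averaged after the sign was turned, which assumes that a set is a dye swap of the same RNA pair. limma 3.58.1 (lmFit, eBayes) in R 4.3.3 tested whether their mean over 3 sets differed from 0, two-sided, with Benjamini-Hochberg adjustment over 11364 features and a threshold of 0.05. Intervals are limma's at 95%. The gene test alone was tried on simulated set values with known changes. These were drawn independently, without dye effects, sign turning or probe averaging, so those steps were not tested.

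The genes, lists and tests were chosen with earlier results of these data known. Set values were given for the 12 largest called changes and for the D-type and E-type cyclins, inhibitors and E2F genes, and for some others after their values were seen. Of each related list, up to 3 called genes and 1 not called gene with the largest change were named. Dck, Pttg1, Anapc10, Cdc26, Csf1r, Csf2, Csf2ra, Csf2rb and Spi1 were added after their values were seen. Myc, Mki67, Tnf, Il1b and Gapdh were to be named whatever their values. Alternatives covered scaling, the set number as a block, dye orientation, sets left out, filters, single probes, variances and thresholds. The promoter windows came from RefSeq (GRCm38.p6). The table holds no intensity, so no filter on dim probes was possible.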

Additional observations from a re-analysis of the deposited data

How the results depend on the processing

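Across 18 alternative settings the number of the 54 genes called lower ran from 10 to 24 (21 as reported) and the number called higher from 1 to 6 (6 as reported). The 3 scalings, robust variances and the filter on sets left both counts at 21 and 6. With treated RNA in Cy5 only, 12 were lower, and when tested against a 1.2-fold change in place of none, 10 were lower and 1 higher. With exact zeros kept as values, 3 were higher. Leaving out a set gave 19 to 21 lower and 4 to 6 higher. Wee1, Ccna2, Cdkn2c, Cdkn2d, E2f1, Rbl2 and Cdkn1a were called in all 18, and 20 called genes lost their call in at least 1. In turn, 7 genes not called as reported were called in at least 1. Besides Ccnk, Cdc25c, Ccnt1 and Cdk5, given above, these were Rb1, Cdc25a and Cdk7. Rb1 and Cdc25a were lower with the set number as a random block (limma adjusted p = 0.0443 and 0.0245), and Cdk7 higher in Cy3 alone (limma adjusted p = 0.0303). The random block gave the count of 24 lower, at a correlation within sets of -0.51. Sign turned for 3 called genes. Ccnb2 was at 0.037 with zeros kept, Ccnt2 at 0.023 with treated RNA in Cy5 only and Cdk13 at -0.20 in Cy3 only. With zeros kept, a second Ccnb2 probe, with a value of 1.73 on 1 array and 0 on the others, enters the mean. The cause for Ccnt2 and Cdk13 was not tested. The set number as a fixed replicate block over 6 arrays gave 16 lower and 5 higher, and 6 arrays with no replicate block 18 and 5. The fixed replicate block ended the calls of Ccne1, Ccnf (adjusted p = 0.0609), Cdc25b, Cdkn1b, Ccnt2 and Cdk13, and 13 of the 25 mitotic genes were lower under it, against 22 as reported. Against a 1.2-fold change, 11 of 36 E2F targets and 5 of 25 mitotic genes were lower. With zeros kept, Ccnd2, Cdk2, Cdk6, Cdk18, Cdkn1b, Cks1b, Skp2 and Ccnt2 also lost their calls. Deviations of same-numbered arrays from their orientation's mean, after the sign was turned, correlated at -0.48, -0.51 and -0.020. Arrays of unlike number and opposite orientation correlated at -0.12 to 0.53. Before the turn, same-numbered arrays of sets 1 and 2 thus tended to deviate in the same direction. The source of this likeness was not tested, and the numbers are not shown to mark a shared RNA pair. Deviations of opposite sign cancel in a set's mean. The SDs between sets and the p-values therefore leave out part of the spread between arrays. Over all 11364 features, 1708 were lower and 1586 higher, against 848 and 904 with the fixed block, 894 and 931 with Cy5 only, 1079 and 1303 with Cy3 only, 1063 and 1064 at an adjusted p below 0.01, and 309 and 529 against a 1.2-fold change. With no replicate block over 6 arrays, 1264 were lower and 1203 higher. The table gives no signal over background, so limits from dim spots could not be set.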
